A study of Mus musculus with 12 samples.

Results

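Light chain variable (V) segments were taken as the rows of the raw count matrix whose symbol begins with Igkv or Iglv and whose biotype is IG_V_gene. The rule kept 103 of 49585 rows: 100 kappa segments in 20 numbered families and 3 lambda segments, Iglv1, Iglv2 and Iglv3. The kappa segments lie on chromosome 6 between positions 67555497 and 70704177 (mm10), 38 on the plus and 62 on the minus strand. The 3 lambda segments lie on the minus strand of chromosome 16 between 19085017 and 19260859. A further 60 rows of light chain V pseudogenes were left out of the rule and held between 3 and 16 reads per library.

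Every antibody carries light chains that are either kappa or lambda. A B cell joins a V segment to a short J segment, and splicing then links the product to a constant gene, Igkc for kappa or one of the Iglc genes for lambda, so that the V row read in a transcript marks the choice of that cell and its descendants. In mice kappa light chains are known to far outnumber lambda. Plasma cells, the antibody-secreting end stage of the B lineage, hold far more light chain mRNA than resting B cells.

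The 12 libraries came from whole lungs of C57BL/6J mice that carried MO4 melanoma under the skin, with 3 libraries in each of 4 groups. All antibodies were injected into the peritoneum; the protocol gives days 3, 7 and 11 after inoculation for anti-PD-1 and the control antibody. The young group (2 months old) received anti-PD-1. The aged groups (22 months old) received a rat isotype-matched control antibody, anti-PD-1 alone, or both anti-PD-1 and an anti-IL-21 receptor antibody (the combination group). Young mice given control antibody were not analysed here, so age was compared only under anti-PD-1, and the aged anti-PD-1 libraries enter 3 of the 4 comparisons below. The labels do not say that each library came from a separate mouse, so the p-values measure the spread between these libraries, which may be technical.

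V segments are near copies of each other, which bounds what a single row can say. Of the 103 segments, 47 had another member at 95% identity or more over the V exon, and 72 had one at 90% or more. How reads matching several rows were counted is not given in the sources used here, so values of single segments are uncertain and families are given beside them. The sequences below are those of the segments that led 1 or more aged libraries, of Igkv12-44, which came close behind the leader in 1 of them, and of the pair Iglv1 and Iglv2. Each is the last 300 coding bases of the V exon (298 for Igkv12-44), read 5′ to 3′ on the coding strand from the mm10 transcripts, with capitals at the bases that differ from the compared segment. Igkv3-2 (chr6:70698768-70699067, plus strand) was compared with its neighbour Igkv3-1, at 92.9% identity. Igkv4-55 (chr6:69607275-69607574, minus strand) was compared with Igkv4-68, at 95.4%. Igkv4-91 (chr6:68768555-68768854, minus strand) was compared with Igkv4-79, at 86.4%. Igkv12-44 (chr6:69814631-69814928, minus strand) was compared with Igkv12-41, at 95.6%. Iglv1 (chr16:19085017-19085316, minus strand) and Iglv2 (chr16:19260401-19260700, minus strand) were compared with each other, at 97.0%.
Igkv3-2: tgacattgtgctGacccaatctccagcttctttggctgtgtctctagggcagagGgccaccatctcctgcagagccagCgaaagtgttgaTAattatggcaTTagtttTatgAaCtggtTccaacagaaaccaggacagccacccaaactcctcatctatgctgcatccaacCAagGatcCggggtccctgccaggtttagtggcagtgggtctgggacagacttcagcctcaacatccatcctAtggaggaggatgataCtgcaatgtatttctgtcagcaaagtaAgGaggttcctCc
Igkv4-55: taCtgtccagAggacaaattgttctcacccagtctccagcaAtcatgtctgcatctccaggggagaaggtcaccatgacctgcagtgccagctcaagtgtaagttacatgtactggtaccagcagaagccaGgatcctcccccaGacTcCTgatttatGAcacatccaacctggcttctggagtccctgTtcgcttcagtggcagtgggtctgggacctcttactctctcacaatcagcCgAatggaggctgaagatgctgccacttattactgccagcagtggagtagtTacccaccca
Igkv4-91: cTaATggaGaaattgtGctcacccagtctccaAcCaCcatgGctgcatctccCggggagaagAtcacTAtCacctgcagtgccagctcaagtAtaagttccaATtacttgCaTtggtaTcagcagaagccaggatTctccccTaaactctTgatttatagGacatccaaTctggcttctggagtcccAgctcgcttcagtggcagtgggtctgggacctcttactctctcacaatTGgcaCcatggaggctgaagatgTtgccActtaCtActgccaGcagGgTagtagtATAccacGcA
Igkv12-44: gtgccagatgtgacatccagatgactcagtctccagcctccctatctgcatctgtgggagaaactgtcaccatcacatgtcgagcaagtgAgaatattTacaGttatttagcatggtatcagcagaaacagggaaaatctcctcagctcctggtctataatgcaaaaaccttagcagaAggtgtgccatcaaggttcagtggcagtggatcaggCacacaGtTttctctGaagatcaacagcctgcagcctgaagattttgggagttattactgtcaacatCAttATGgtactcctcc
Iglv1: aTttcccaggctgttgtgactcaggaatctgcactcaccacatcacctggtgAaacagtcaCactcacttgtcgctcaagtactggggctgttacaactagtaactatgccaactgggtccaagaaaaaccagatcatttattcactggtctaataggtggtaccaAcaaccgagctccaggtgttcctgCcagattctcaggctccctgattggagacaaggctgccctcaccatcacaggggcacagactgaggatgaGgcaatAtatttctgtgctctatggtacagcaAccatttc
Iglv2: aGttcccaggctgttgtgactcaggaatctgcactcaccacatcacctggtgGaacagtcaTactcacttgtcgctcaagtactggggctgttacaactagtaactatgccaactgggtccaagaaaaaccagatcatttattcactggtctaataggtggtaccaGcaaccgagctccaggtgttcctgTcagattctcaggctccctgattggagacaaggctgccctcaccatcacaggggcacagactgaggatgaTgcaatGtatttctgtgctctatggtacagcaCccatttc
Capitals fall on 8 of the printed bases in each of Iglv1 and Iglv2 and on 41 in Igkv4-91, so the lambda pair is the closer of these comparisons.

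Light chain V reads were several times more abundant in every aged library than in every young library. The young libraries held 811, 765 and 839 light chain V reads (replicates 1, 2 and 3). The aged control libraries held 4040, 2119 and 3247, the aged anti-PD-1 libraries 5730, 3914 and 6768, and the combination libraries 2738, 5792 and 9152. In CPM, a row's reads relative to the library size scaled by TMM, the group means were 38.8 ± 2.10 in young, 168 ± 45.4 in aged control, 258 ± 72.0 in aged anti-PD-1 and 376 ± 225 in combination libraries (SD, n = 3 each). The lowest aged library stood at 120 CPM and the highest young library at 41.1 CPM, and the young range did not overlap any aged group. The 3 aged groups overlapped one another: the aged control libraries spanned 120 to 210 CPM, the aged anti-PD-1 libraries 197 to 338 CPM and the combination libraries 154 to 604 CPM. The mean of the aged anti-PD-1 group was 6.66 times that of the young group, and 5.39 times when the 5 most used segments of each library were left out. No test was made on this sum, which is taken over the segments; with 3 libraries a group the smallest exact permutation p would be 0.1. In whole tissue, fewer cells of a type and less RNA per cell cannot be told apart.

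**Figure D1:**
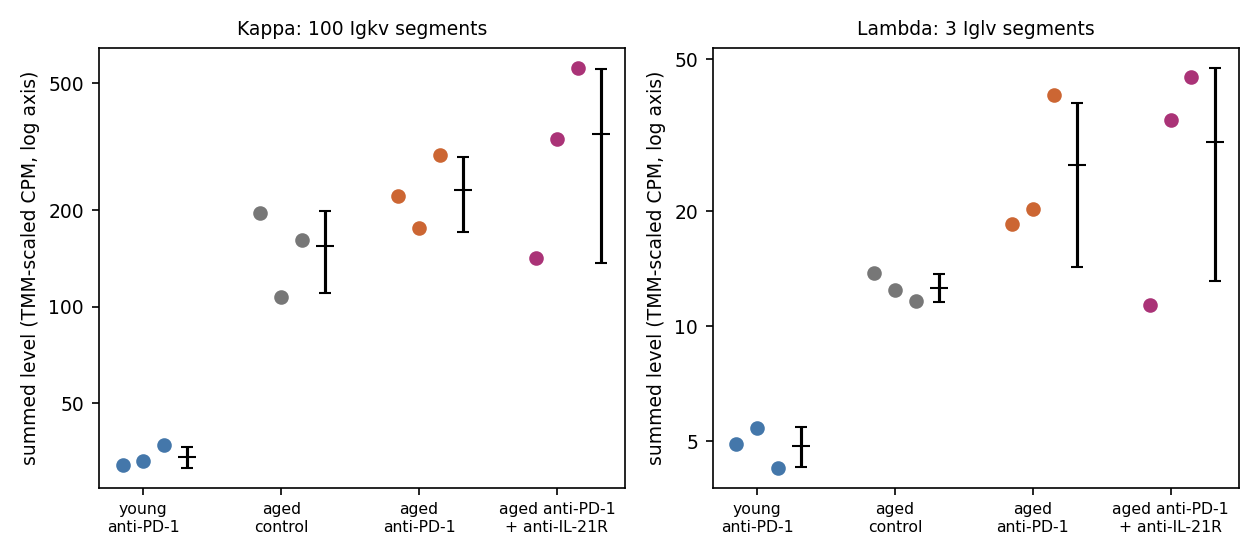
Summed level of the 100 kappa and 3 lambda V segments in each library (TMM-scaled CPM, log axes); dots are libraries, bars are the mean and SD of 3. All 3 young libraries sit below 50 CPM for kappa, the aged groups overlap for kappa, and for lambda the aged anti-PD-1 libraries lie above the aged control libraries.

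Nearly all segments were seen somewhere. Of the 103, 99 had at least 1 read in some library, 64 had a read in all 12, and 4 (Igkv1-131, Igkv1-35, Igkv2-137 and Igkv8-26) had none in any library. No segment was seen in the young libraries alone, and 5 were seen in aged libraries alone. These 5 had at most 10 reads in any library, and 9 aged libraries were set against 3 young ones. The number of segments with a read was 78, 88 and 79 in young, 90, 84 and 90 in aged control, 88, 86 and 86 in aged anti-PD-1, and 86, 96 and 94 in combination libraries. With a minimum of 10 reads the groups parted, at 27 to 33 segments in young and 54 to 67 in aged libraries. The aged libraries also held more light chain V reads in all. At a common 765 light chain V reads, the size of the smallest library, the expected number of segments seen was 77.5 to 88.0 in young, 74.6 to 78.0 in aged control, 70.1 to 72.9 in aged anti-PD-1 and 67.7 to 76.0 in combination libraries. At equal read number the aged anti-PD-1 and combination libraries therefore showed fewer segments than every young library, and the aged control range overlapped the young range.

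Lambda made up a small share of light chain V reads in all groups. The Iglv share was 13.3%, 14.1% and 10.4% in the young libraries, each with an exact binomial 95% interval that covers counting error only (11.1% to 15.9%, 11.7% to 16.8% and 8.39% to 12.6%). The share was 6.56%, 10.4% and 6.71% in aged control, 7.70%, 10.3% and 11.9% in aged anti-PD-1, and 7.38%, 9.38% and 7.42% in combination libraries. Young replicate 3 was level with aged control replicate 2, so the young range overlapped aged control and aged anti-PD-1, and it lay wholly above the combination group. Group means were 12.6% ± 1.97 in young, 7.90% ± 2.19 in aged control, 9.98% ± 2.13 in aged anti-PD-1 and 8.06% ± 1.14 in combination libraries (SD, n = 3 each).

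Constant genes gave a wider gap between the ages than the V segments did. How reads matching several Iglc rows were counted is not given either. Which of these shares better tracks lambda use was not tested. The Iglc genes held 39.4%, 37.6% and 35.7% of light chain constant reads in the young libraries, against 8.12% to 15.3% over the 9 aged libraries, with no overlap. The mean was 37.6% ± 1.82 in young, 12.7% ± 3.95 in aged control, 13.1% ± 0.862 in aged anti-PD-1 and 11.0% ± 1.65 in combination libraries (SD, n = 3 each). V and constant reads did not keep a fixed ratio. For each 100 Iglc reads the young libraries held 7.99 to 10.7 lambda V reads and the aged libraries 11.8 to 24.3. For each 100 Igkc reads the young libraries held 36.2 to 39.1 kappa V reads and the aged libraries 16.0 to 32.5. Neither pair of ranges overlapped, and the ratios differed in opposite directions: the aged libraries had more V reads per constant read for lambda and fewer for kappa.

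**Figure D2:**
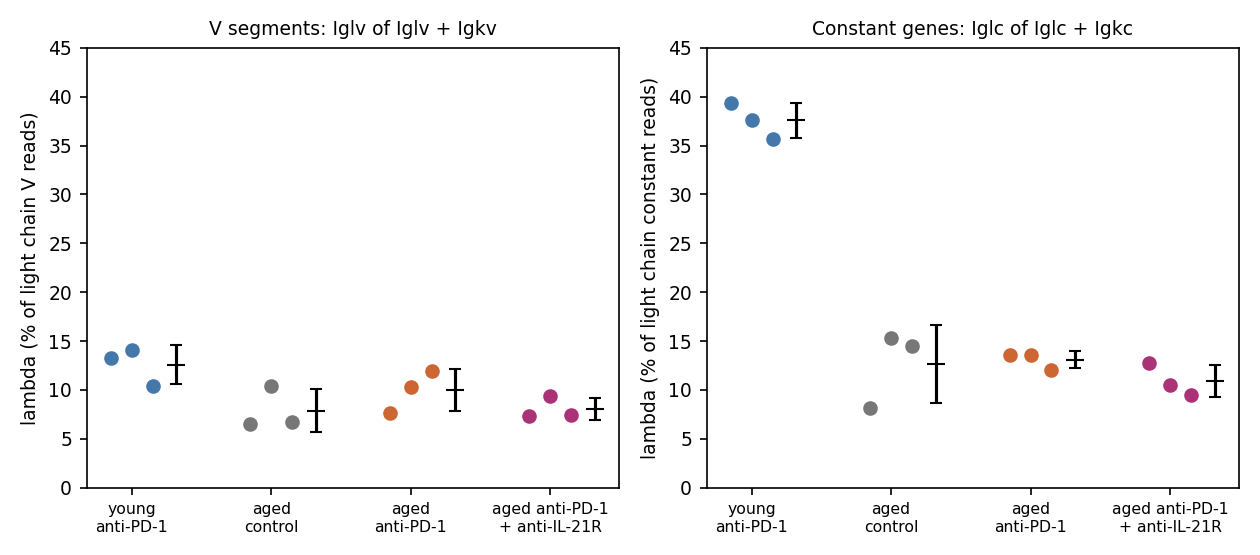
Lambda share of light chain V reads (left) and of light chain constant gene reads (right) in each library, in percent; dots are libraries, bars are the mean and SD of 3. The V share runs from 6.56% to 14.1% with overlap between young and aged libraries, while the constant gene share is 35.7% to 39.4% in young and 8.12% to 15.3% in aged libraries.

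The lambda segments themselves were higher in aged than in young mice under anti-PD-1. Iglv1, known to join the J segments next to Iglc3 and Iglc1, had 47, 54 and 35 reads in young and 263, 287 and 582 in aged anti-PD-1 libraries, or 2.19 ± 0.49 and 18.2 ± 9.55 CPM (SD, n = 3 each). The ranges did not overlap, and Iglv1 rose by a log2 fold change of 3.05 ± 0.54 (SE; edgeR adjusted p = 0.0047). Iglv2 had 23, 29 and 26 reads in young and 93, 63 and 147 in aged anti-PD-1 libraries, a log2 fold change of 1.93 ± 0.50 (edgeR adjusted p = 0.023). Iglv3 had 38, 25 and 26 reads against 85, 54 and 78, a log2 fold change of 1.25 ± 0.31 (edgeR adjusted p = 0.0155). Again no young library reached an aged one, although these 2 calls rest on few libraries. Without young replicate 1, 2 or 3 or aged anti-PD-1 replicate 3, the adjusted p of Iglv2 was between 0.0636 and 0.101. Without young replicate 2 or 3 or aged anti-PD-1 replicate 3, that of Iglv3 was between 0.0649 and 0.0671. Iglv1 passed in each fit that left 1 library out.

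Use of the segments was most even in the young libraries. Evenness was expressed as the effective number of segments, the exponential of the Shannon entropy of the read shares, which is the number of equally used segments that would give the same entropy. It was 49.4, 54.7 and 52.6 in young, 28.8, 42.3 and 45.5 in aged control, 34.7, 37.9 and 40.2 in aged anti-PD-1, and 38.5, 42.8 and 22.1 in combination libraries. Every young library was above every aged library, and the 3 aged groups overlapped, with the lowest value in combination replicate 3. Means were 52.2 ± 2.70 in young, 38.9 ± 8.86 in aged control, 37.6 ± 2.79 in aged anti-PD-1 and 34.5 ± 10.9 in combination libraries (SD, n = 3 each). At the common 765 reads the young libraries spanned 49.2 to 54.7 and the aged libraries 20.9 to 43.4, again without overlap. When the most used segment of each library was left out, aged control replicate 3 (55.0) and combination replicate 2 (52.9) came within the young range of 51.1 to 56.4, and the other aged libraries stayed below it.

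A few segments carried the uneven use. The 5 most used segments of a library held 24.0% to 26.1% of its light chain V reads in young and 33.4% to 58.1% in aged libraries. The fewest segments that together held 50% of the reads numbered 14, 16 and 15 in young, 6, 9 and 13 in aged control, 7, 10 and 11 in aged anti-PD-1, and 10, 13 and 4 in combination libraries. Aged control replicate 3 and combination replicate 2 were thus closest to the young libraries, and combination replicate 3 farthest. Across all libraries, 12 segments reached 5% of the light chain V reads somewhere; all 12 did so in an aged library and 3 in a young one.

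**Figure D3:**
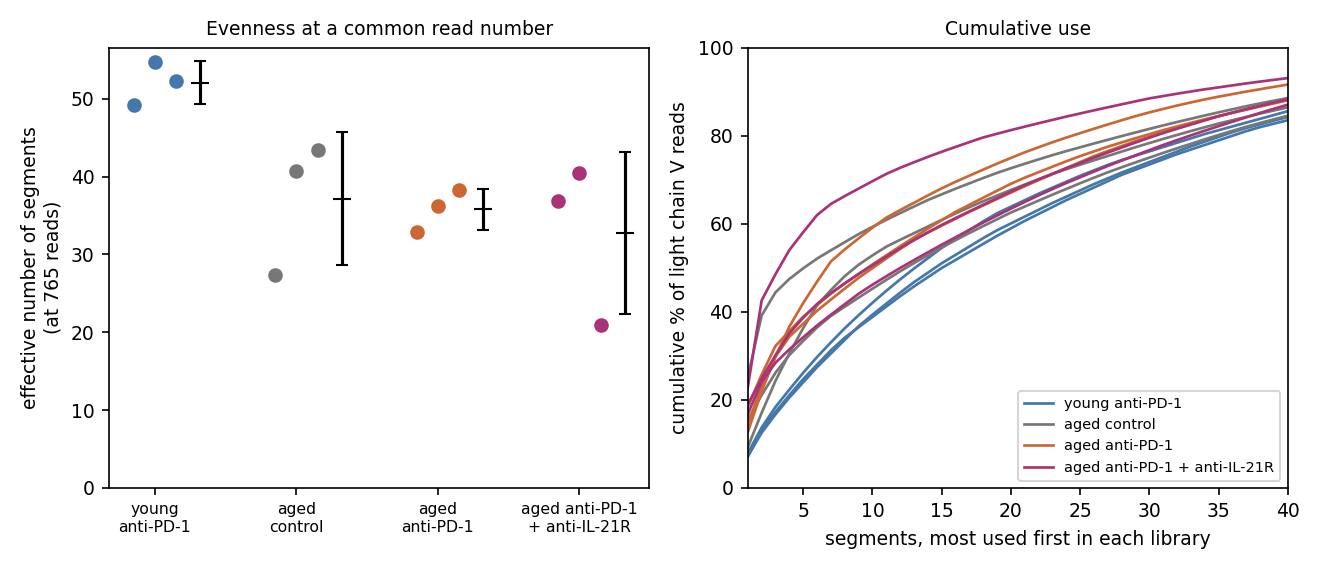
Effective number of light chain V segments at a common 765 reads (left; dots are libraries, bars the mean and SD of 3) and cumulative share of reads over segments ordered by use (right; 1 line per library, percent). Young libraries lie at 49.2 to 54.7, above all aged libraries, and combination replicate 3, at 20.9, has the steepest cumulative curve.

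Igkv3-2, whose sequence stands above, was the most used segment in 7 of the 9 aged libraries and in no young library. It held 0.986%, 0.523% and 2.50% of light chain V reads in young, 25.2%, 9.25% and 15.5% in aged control, 9.28%, 18.4% and 14.5% in aged anti-PD-1, and 18.9%, 16.7% and 5.47% in combination libraries. All aged libraries were above all young libraries, whatever the antibody. Its reads numbered 8, 4 and 21 in young and 532, 719 and 978 in aged anti-PD-1 libraries. Igkv3-2 rose from 0.53 ± 0.44 to 35.8 ± 13.2 CPM (SD, n = 3 each), a log2 fold change of 6.06 ± 0.79 (SE; edgeR adjusted p = 0.0016). Between aged groups it did not pass the test: the log2 fold change of aged anti-PD-1 against aged control was 0.24 ± 0.52 (SE; edgeR adjusted p = 0.81).

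The other 2 aged libraries were led by other kappa segments. Igkv4-55 led aged anti-PD-1 replicate 1 with 12.7% of light chain V reads. Igkv4-91 led combination replicate 3 with 22.9% (2092 reads), followed there by Igkv12-44 with 19.7% (1804 reads). In the other 11 libraries Igkv4-91 held 0.493% to 5.36% and Igkv12-44 0.901% to 2.23%, so both stood apart in 1 library alone. The combination means of Igkv4-91 (49.9 ± 76.3 CPM) and Igkv12-44 (43.0 ± 65.8 CPM; SD, n = 3 each) rest on that library, and neither segment passed the test against aged anti-PD-1 (edgeR adjusted p = 0.18 and 0.0917). In the young libraries the leading segments were Igkv1-117 (7.89% and 7.15%, replicates 1 and 3) and Iglv1 (7.06%, replicate 2). The leading segment was the same in all 12 libraries when reads were divided by exon length.

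Shares of Igkv1-117 and Igkv1-110 ran the other way in the aged mice given anti-PD-1. Igkv1-117 held 6.14% to 7.89% in young, 5.61% to 14.0% in aged control, 2.44% to 3.35% in aged anti-PD-1 and 2.75% to 3.90% in combination libraries. Igkv1-110 held 3.82% to 5.36% in young, 2.20% to 7.27% in aged control, 1.37% to 2.15% in aged anti-PD-1 and 1.50% to 1.92% in combination libraries. For both, the 6 libraries of the groups that were aged and given anti-PD-1 lay below the young and the aged control libraries. For Igkv1-110 the gap to aged control was narrow. Aged anti-PD-1 replicate 2 stood at 2.15% (counting interval 1.72% to 2.65%) and aged control replicate 1 at 2.20% (1.77% to 2.70%). The 2 segments are each other's closest copy, at 96.8% identity. They may not be separate observations, since how shared reads were counted is not known. A lower share did not mean a lower level, since the total was larger: Igkv1-117 stood at 2.74 ± 0.33 CPM in young and 7.48 ± 2.19 CPM in aged anti-PD-1 libraries (SD, n = 3 each). That difference did not pass the test (log2 fold change 1.44 ± 0.65; edgeR adjusted p = 0.16). Over all 103 segments, 27 had a lower share in every aged anti-PD-1 library than in every young one and 7 a higher share. Shares within a library are tied, so a rise in some segments lowers the rest. No rate over all genes was set beside these counts, so they are not read as a result about the segments. With 3 libraries against 3, some segments separate fully even where groups do not differ. In level, 65 of the 66 tested segments had a positive log2 fold change in this comparison.

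**Figure D4:**
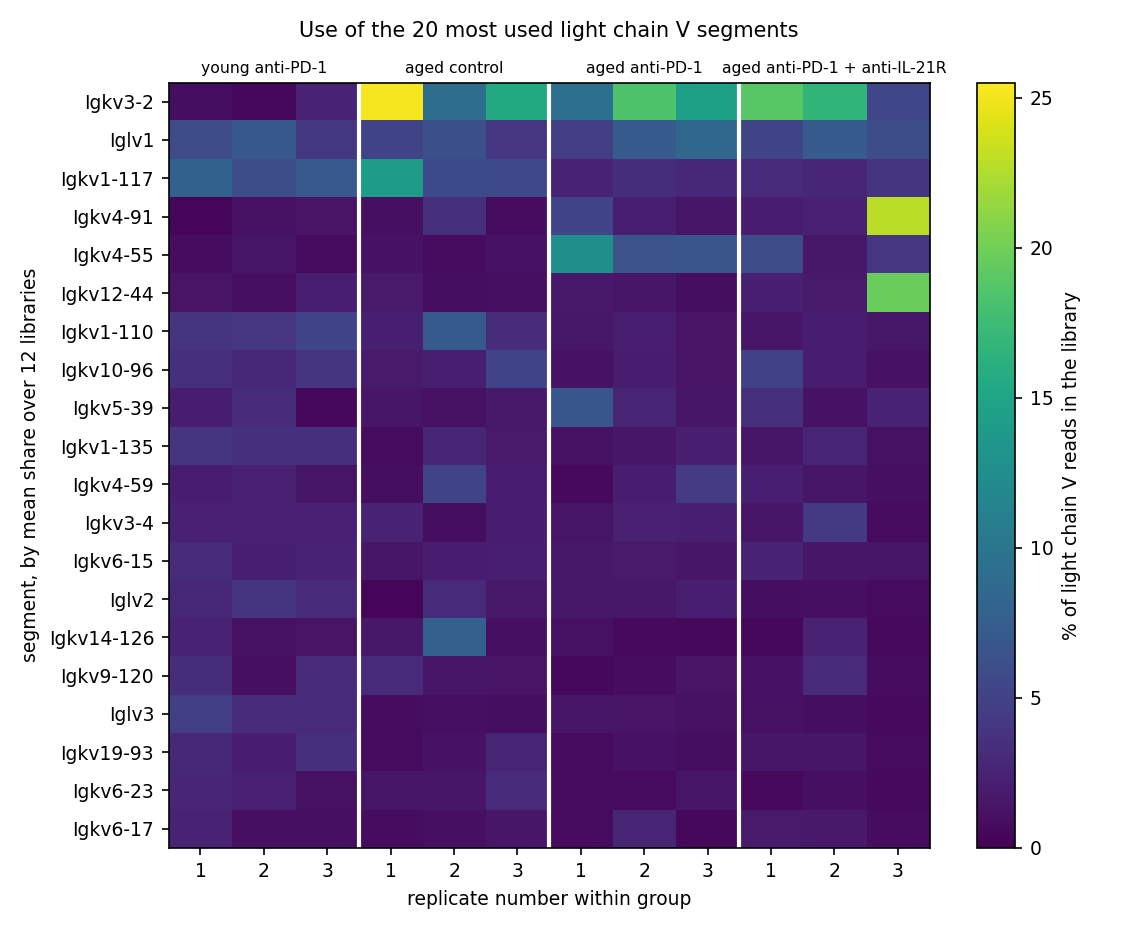
Share of light chain V reads (percent, colour scale) held by each of the 20 segments with the highest mean share, in the 12 libraries grouped by treatment. Igkv3-2 is bright across the aged libraries and dark in the young ones, Igkv4-91 and Igkv12-44 are bright in combination replicate 3 alone, and Igkv1-117 is brightest in aged control replicate 1.

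Likeness of use was summarised by the Morisita-Horn index, which is 1 for identical shares and 0 for no shared segment. The 3 young libraries were alike, at 0.895 to 0.930. Within groups of aged libraries the index was 0.665 to 0.847 for control, 0.764 to 0.935 for anti-PD-1 and 0.383 to 0.924 for the combination, whose replicate 3 differed from the other two. Over the 27 pairs of a young with an aged library it was 0.267 to 0.751, below every pair of young libraries. Pairs from different aged groups spanned 0.313 to 0.955, so aged libraries of different treatments were at times more alike than those of 1 treatment.

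Of the 103 segments, 66 passed the filter on low counts (63 kappa and 3 lambda) and were tested with the 18556 genes of the edgeR fit; a segment was called at a Benjamini-Hochberg adjusted p under 0.05. In aged against young mice under anti-PD-1, 36 segments were called higher (33 kappa and 3 lambda) and none lower. Among all genes tested, 8.09% were called higher and 7.16% lower in that comparison. The median log2 fold change of the tested segments was 2.26, against -0.01 over all genes tested, and 65 of the 66 values were positive. The filter kept segments that were high in some group, so the 66 are not a sample of all 103. The count moved when single libraries were left out: it was 23, 20 and 22 without young replicate 1, 2 or 3, and 22 without aged anti-PD-1 replicate 3. In each fit that left 1 library out, 19 of the 36 calls remained, including Igkv3-2, Igkv4-55, Igkv4-74, Igkv12-41, Igkv8-24, Igkv4-70, Igkv5-48 and Iglv1.

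Of the 8 called segments with the largest fold changes, 4 were of the Igkv4 family, which holds 26 of the 100 kappa segments. Igkv4-74 had 2, 3 and 2 reads in young and 449, 79 and 107 in aged anti-PD-1 libraries, a log2 fold change of 6.31 ± 0.80 (SE; edgeR adjusted p = 0.0007). Igkv4-55 had 7, 11 and 6 reads against 725, 256 and 456, a log2 fold change of 5.81 ± 0.67 (edgeR adjusted p = 0.0005). Neither segment had a young library near an aged one, and aged anti-PD-1 replicate 1 was the highest in both. Igkv4-80 had 1 read in each young library and 13, 5 and 114 in aged anti-PD-1 libraries; the ratio per effective library size was 43.0, with an exact interval of 14.4 to 211 for counting error only. Its call (edgeR adjusted p = 0.0189) was lost without any young library or without aged anti-PD-1 replicate 3 (adjusted p 0.0616 to 0.0783). Igkv4-70 had 4, 5 and 2 reads against 15, 129 and 45, a log2 fold change of 4.08 ± 0.82 (edgeR adjusted p = 0.0067).

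Among the other large rises, Igkv12-41 had 2, 6 and 6 reads in young and 157, 49 and 173 in aged anti-PD-1 libraries (log2 fold change 4.67 ± 0.75; edgeR adjusted p = 0.0022). Igkv8-24 had 2, 7 and 3 reads against 53, 63 and 137 (log2 fold change 4.35 ± 0.66; edgeR adjusted p = 0.0016). In both, the lowest aged anti-PD-1 library exceeded the highest young library. Igkv1-99 had 0, 0 and 6 reads against 143, 12 and 43, and its call (edgeR adjusted p = 0.0205) was lost without young replicate 1 or 2 or aged anti-PD-1 replicate 1 (adjusted p 0.0716 to 0.0826). Igkv5-39 and Igkv10-96 were among the 8 kappa segments with the highest mean share. Igkv5-39 had 16, 25 and 5 reads in young and 393, 103 and 106 in aged anti-PD-1 libraries, with aged anti-PD-1 replicate 1 the highest (log2 fold change 3.60 ± 0.69; edgeR adjusted p = 0.006). Igkv10-96 had 29, 22 and 32 reads against 74, 78 and 92 (log2 fold change 1.53 ± 0.38; edgeR adjusted p = 0.0164). Neither overlapped between the groups; the Igkv10-96 call was lost without young replicate 2 or aged anti-PD-1 replicate 3 (adjusted p 0.0697 and 0.0655), and that of Igkv5-39 was not lost when any 1 library was left out. The segments with the lowest fold changes, picked after their values were seen, were Igkv2-112 (-0.16), Igkv3-12 (0.20) and Igkv12-98 (0.47), none of them called.

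Fewer segments differed between aged mice given anti-PD-1 and those given control antibody. There 7 were called higher and none lower, where 5.34% of all genes tested were called higher and 5.58% lower. The median log2 fold change of the 66 segments was 0.55, and 18 of them had a negative value. Igkv4-55 had 52, 15 and 41 reads in aged control libraries, and rose from 1.91 ± 0.96 CPM to 22.0 ± 8.81 CPM (SD, n = 3 each) with anti-PD-1, a log2 fold change of 3.51 ± 0.55 (SE; edgeR adjusted p = 0.0059). Igkv4-74 had 5, 2 and 17 reads in aged control libraries and a log2 fold change of 4.44 ± 0.67 (edgeR adjusted p = 0.005). Neither overlapped between the groups, and these 2 of the 7 calls remained in every fit that left 1 library out. The other 5 were Igkv1-99 (8, 0 and 1 control reads; log2 fold change 4.14 ± 1.15), Igkv4-70 (2.46 ± 0.71), Igkv12-41 (2.43 ± 0.61), Igkv5-48 (1.90 ± 0.49) and Iglv3 (1.14 ± 0.31), with edgeR adjusted p between 0.0268 and 0.0427. Of these, Igkv4-70 overlapped between the groups in CPM. Without aged control replicate 2 or 3, or aged anti-PD-1 replicate 1 or 3, the count of calls was 2, 3, 3 and 3. Each of the 5 was lost in 1 or more of these fits, at adjusted p of 0.0571 to 0.142, and Igkv4-70 also without aged control replicate 1 (0.114) or aged anti-PD-1 replicate 2 (0.198).

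Iglv3 was the lambda segment among those 7. Its reads numbered 34, 22 and 30 in aged control and 85, 54 and 78 in aged anti-PD-1 libraries, a gap of 1.54 ± 0.27 to 3.39 ± 0.61 CPM with no overlap (SD, n = 3 each; edgeR adjusted p = 0.0321, and 0.0647 to 0.108 without aged control replicate 2 or 3 or aged anti-PD-1 replicate 1 or 3). Iglv1 did not overlap either, with 212, 132 and 131 control reads against 263, 287 and 582, but did not pass the test (log2 fold change 1.09 ± 0.48; edgeR adjusted p = 0.16). The summed lambda level was 11.6 to 13.8 CPM in aged control and 18.5 to 40.2 CPM in aged anti-PD-1 libraries, again without overlap, while the summed kappa levels of the 2 groups overlapped.

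With the antibody to the IL-21 receptor added, 3 of the 66 tested segments were called against anti-PD-1 alone. Of the segments, 1.52% were called higher and 3.03% lower, below the 4.67% and 4.35% of all genes tested. Igkv4-74 fell: the combination libraries held 10, 11 and 13 reads where anti-PD-1 alone held 449, 79 and 107, a log2 fold change of -3.73 ± 0.64 (SE; edgeR adjusted p = 0.0074). The combination libraries thus lay in the range of the aged control libraries (2 to 17 reads) for this segment. Igkv5-48 also fell, with 12, 19 and 33 reads against 278, 75 and 94 (log2 fold change -2.33 ± 0.51; edgeR adjusted p = 0.0174). Igkv2-109 rose, with 40, 98 and 38 reads against 23, 23 and 21 (log2 fold change 1.79 ± 0.40; edgeR adjusted p = 0.0168). The Igkv5-48 call was lost without aged anti-PD-1 replicate 1 or combination replicate 2 (adjusted p 0.0685 and 0.0888), as was that of Igkv2-109 (0.0631 and 0.101), and the Igkv4-74 call remained in each fit that left 1 library out. The median log2 fold change of the segments was 0.47. The number of calls was itself unsteady: it was 1 without aged anti-PD-1 replicate 1 or combination replicate 2, 6 without aged anti-PD-1 replicate 3, and 8 without combination replicate 1 or 3.

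Igkv4-55 did not differ in the same way: its combination libraries held 162, 96 and 371 reads, overlapping anti-PD-1 alone, with a log2 fold change of -0.74 ± 0.47 (SE; edgeR adjusted p = 0.34). For the combination against aged control, edgeR called none of the 66 segments higher and none lower, and over all genes tested 0% were called higher and 0% lower. At an unadjusted p under 0.05 there were 20 segments, DESeq2 called 4 and limma-voom none. The median log2 fold change of the segments was 0.89. The number of edgeR calls was 1 without combination replicate 1.

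**Figure D5:**
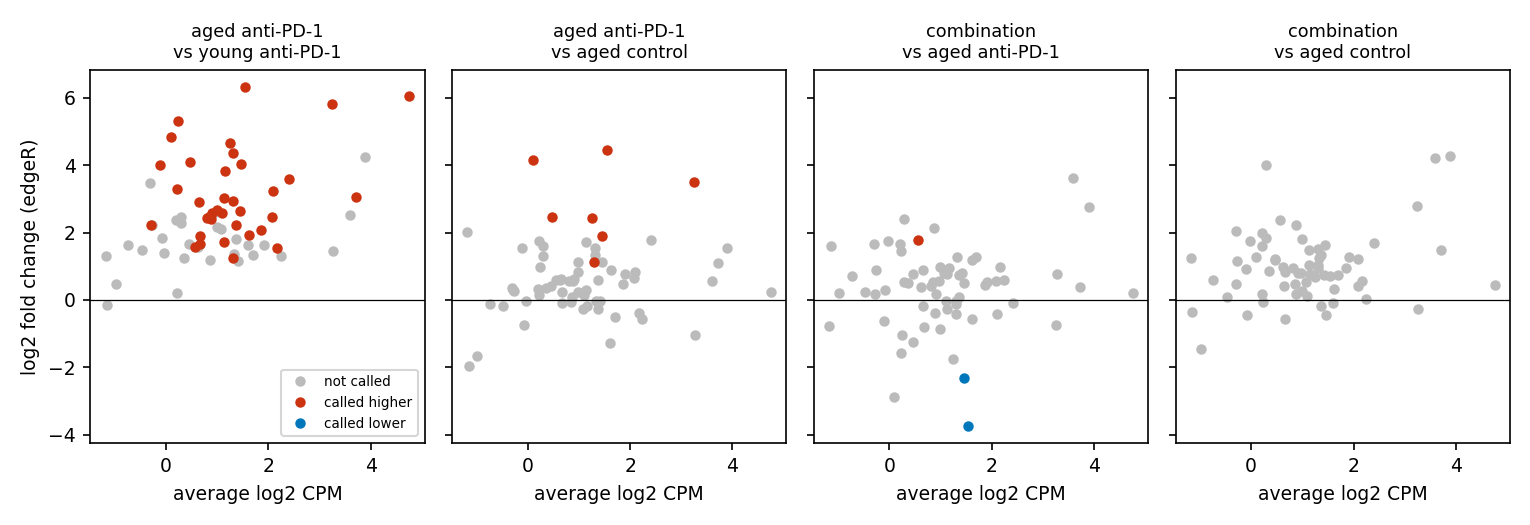
Log2 fold change against average log2 CPM for the 66 tested light chain V segments in the 4 comparisons (edgeR); coloured points were called at an adjusted p under 0.05. Calls number 36 higher in the first panel, 7 higher in the second, 1 higher and 2 lower in the third and 0 in the last.

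Reads were also summed by family, so that near copies of 1 family counted together. Some families hold 1 segment, among them Iglv1, Iglv2, Iglv3 and Igkv16, all called in the age comparison. Their values repeat those of the single segment, and the near copies Iglv1 and Iglv2 were not merged. In the age comparison 14 of the 19 families tested were called higher and none lower, among them Igkv3 (3.09 ± 0.80 to 47.5 ± 17.5 CPM; log2 fold change 3.94 ± 0.59; edgeR adjusted p = 0.003) and Igkv4 (4.79 ± 1.20 to 68.2 ± 19.6 CPM; 3.84 ± 0.68; edgeR adjusted p = 0.0065; SD, n = 3 each). In aged anti-PD-1 against aged control the families called higher were Igkv5 and Iglv3, and in the combination against anti-PD-1 the family Igkv2 alone. In the fit of single segments, 8.09%, 5.34% and 4.67% of all genes were called higher in these comparisons, in turn. The few family calls of the later comparisons were not shown to exceed those shares. As a share of light chain V reads, Igkv3 held 6.93% to 9.77% in young and 10.1% to 31.7% in aged libraries. Igkv4 held 9.62% to 15.6% in young, 8.99% to 18.4% in aged control, 23.2% to 32.5% in aged anti-PD-1 and 14.0% to 31.9% in combination libraries. The Igkv1 family held 14.4% to 17.9% in young and 11.9% to 17.4% in aged control, and 7.40% to 8.05% in aged anti-PD-1 and 6.90% to 8.70% in combination libraries. For Igkv4 and Igkv1 the aged anti-PD-1 libraries did not overlap the young or the aged control libraries, whereas for Igkv3 all aged groups lay above the young. The Igkv3 sum includes Igkv3-2, so it is not a separate readout from that segment. Mean shares in young and aged anti-PD-1 libraries were 7.91% and 18.6% for the family, and 1.34% and 14.0% for Igkv3-2 alone. Igkv3-2 thus gained more share than the family, and the other Igkv3 segments together gained none. The family was not fitted again without Igkv3-2.

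Position along the kappa locus also differed, in a split chosen after the data were seen. The 50 kappa segments nearest to Igkc (starting beyond 69408625 on chromosome 6) held 44.1%, 49.6% and 45.2% of kappa V reads in young, 58.8%, 49.2% and 58.6% in aged control, 63.1%, 64.8% and 69.2% in aged anti-PD-1, and 65.2%, 57.3% and 54.1% in combination libraries. Igkv3-2 lies among them. Without it the shares were 43.5% to 49.3% in young, 43.3% to 50.4% in aged control, 55.8% to 63.2% in aged anti-PD-1 and 47.7% to 56.3% in combination libraries. Leaving it out thus brought aged control level with young, while the aged anti-PD-1 libraries stayed above both. Igkv4-55 lies among the 50 too. It held 6.54% to 12.7% of light chain V reads in aged anti-PD-1 libraries and 0.708% to 1.44% in young and aged control libraries. Igkv4-74, at 1.58% to 7.84% in aged anti-PD-1 libraries, lies outside them. The split was not repeated without these segments, and their part in it was not tested.

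The constant genes were also higher in aged than in young mice under anti-PD-1. Igkc, the single kappa constant gene, stood at 88.7, 84.1 and 96.1 CPM in young and 699, 762 and 1326 CPM in aged anti-PD-1 libraries, with no overlap, and rose by a log2 fold change of 3.37 ± 0.54 (SE; edgeR adjusted p = 0.0036). Of the light chain constant and joining genes, 8 of 14 were tested in the age comparison, and 5 were called higher and none lower. They were Igkc, Igkj2, Iglc1 (log2 fold change 2.73 ± 0.61), Iglc2 (0.92 ± 0.26) and Iglc3 (0.97 ± 0.21), with edgeR adjusted p of 0.016, 0.0334 and 0.0099 for the 3 Iglc genes. The Iglc1 call was lost without young replicate 2 or 3 (adjusted p 0.0583 and 0.0674), and the Iglc2 call without any young library or without aged anti-PD-1 replicate 1 or 3 (0.0753 to 0.114). None of the 8 was called in the other 3 comparisons. All 7 tested heavy chain constant genes were called higher in aged mice under anti-PD-1, with Ighm, the IgM heavy chain, at a log2 fold change of 3.33 ± 0.52 and Ighg3 at 4.93 ± 0.65.

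Markers of B cells and plasma cells were read beside the segments, and their part in the results above was not tested. Of 12 B cell markers, 9 were called higher and none lower in aged against young mice under anti-PD-1, among them Ms4a1, which encodes CD20 (log2 fold change 1.39 ± 0.23), and their summed level was 266 to 312 CPM in young and 543 to 591 CPM in aged anti-PD-1 libraries. Against aged control, 4 of the 12 were called higher, and the summed level there was 280 to 517 CPM; in the combination libraries it was 504 to 805 CPM, with none called against either aged group. Of 13 plasma cell markers, 6 were called higher and 1 lower in the age comparison. Jchain, which links antibody units in secreted IgM and IgA, rose from 8.21 ± 0.91 to 207 ± 98.7 CPM (SD, n = 3 each), and Sdc1, which lung epithelium also expresses, fell.

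Genes that act on light chain loci gave fewer calls. Of 13 transcription factors that act on light chain genes, 4 were called higher in the age comparison: Pou2af1, a coactivator at octamer sites in V promoters (1.68 ± 0.18), Spib (1.45 ± 0.17), Pou2f2 (1.14 ± 0.23) and Ebf1 (0.46 ± 0.15). Against aged control, Pou2af1 (0.89 ± 0.17) and Spib (0.57 ± 0.17) were called higher, and Spi1 and Rela lower. Among all genes tested, 8.09% were called higher with age, and 5.34% higher and 5.58% lower against aged control. Pou2af1 is also among the plasma cell markers above and Spib among the B cell markers, so these calls are not a separate readout. Several genes of light chain rearrangement were near the floor: Rag1 had 0 to 11 reads per library, Rag2 0 to 1, and Igll1, part of the surrogate light chain of precursor B cells, 0 to 3. Of that list of 7 only Vpreb1 (6 to 20 reads per library) and Vpreb3 (246 to 450) were tested, and neither was called. Of 7 tested germinal centre and class switching genes, 2 were called higher and 2 lower in the age comparison.

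Library facts bear on all of these values. Counts per library summed to between 16021877 and 22058620, of which light chain V reads were 0.00387% to 0.0571%. The lung epithelial markers Sftpc, Sftpb, Sftpa1, Ager, Scgb1a1 and Foxj1 summed to between 28054 and 54494 CPM in every library, so the defining markers of the labelled tissue were present, and 4 of the 6 were called lower in aged than in young mice under anti-PD-1. Of the 4 markers of thymus or lymph node tissue (Dntt, Rag1, Ccl21a and Cr2), Cr2, which B cells also express, was the only one tested. It was called higher in aged than in young mice under anti-PD-1 (log2 fold change 1.84 ± 0.41), and the 4 summed to 4.26 to 5.07 CPM in young and 11.2 to 17.3 CPM in aged anti-PD-1 libraries; Ccl21a had 0 to 2 reads per library. Of 6 T cell markers, 3 were called higher and none lower in the same comparison. In aged anti-PD-1 against aged control, 3 of 4 neutrophil markers were called lower and 2 of 3 endothelial markers higher. In the combination against anti-PD-1 alone, 3 of the 4 neutrophil markers were called higher and 2 of the 3 endothelial markers lower. The part of these cell types in the results above was not tested.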

How the data were processed

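Total RNA from whole lung was enriched for poly(A) RNA and made into directional libraries, per the labels' protocols. The deposited values are raw read counts per gene with no normalization, per the file headers, in 1 column per library. The tools were bcl2fastq 1.8.4, Trimmomatic, HISAT2 and featureCounts 1.6.3 with mm10, per the submitters' processing notes. Options, annotation release and strand setting are not given in the sources used here. V exon sequences and lengths came from the GENCODE M21 annotation of the same build, in which all 103 segments had the coordinates deposited with the counts.

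Genes were filtered with filterByExpr by group (minimum count 10, minimum total 15), which left 18556 of 49585, and scaled by TMM. One edgeR quasi-likelihood model (edgeR 4.0.16, R 4.3.3, robust, 4 group means, 12 libraries, 8 residual degrees of freedom) gave two-sided F tests, with p-values adjusted by Benjamini-Hochberg over the whole table and a threshold of 0.05. Sums, shares and evenness over the segments are described per library with no test. Expected values at 765 reads are exact hypergeometric expectations; intervals are exact (Clopper-Pearson, 95%) and cover counting error only, since reads carry no molecular identifiers. Replicates of a group differed beyond counting noise (chi-square per degree of freedom of 9.61 to 48.1). Replicate numbers were not used as pairs.

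Named segments are the 3 lambda segments, the 8 kappa segments with the highest mean share, the leading segment of each library, and up to 8 called segments per direction and comparison by size of fold change; any other segment named was chosen after its values were seen. Members, lists and rules were chosen with earlier results of these data known. The model scripts were tested on simulated data. Alternatives were DESeq2 1.42.0, limma-voom (limma 3.58.1), other scalings and filters, only the groups compared, a replicate block, family sums, other indices and leaving out each library. Promoter sequences of the segments were not analysed here.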

Additional observations from a re-analysis of the deposited data

How the results depend on the processing

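The numbers of segments called were 36, 7, 3 and 0 for, in turn, age under anti-PD-1, anti-PD-1 in aged mice, the combination against anti-PD-1 alone and the combination against control antibody. Leaving out 1 library at a time gave 20 to 35, 2 to 6, 1 to 8 and 0 to 1. Family sums gave 14, 2, 1 and 0 of 19 families, fewer units being tested. With no filter the last 3 were 3, 6 and 1; with DESeq2 the last 2 were 9 and 4; with only the 2 groups compared the second was 4; with library totals in place of TMM the third was 6, where the median log2 fold change of all genes moved to -0.21. A replicate block gave 37, 7, 5 and 0. Residuals of same-numbered libraries had a median correlation of -0.024 (-0.213 to 0.200, 18 pairs), and 3 of 12 libraries correlated best with their own number. The labels do not say what the numbers mark, and whether libraries of 1 number share a batch was not tested. The other settings gave 25 to 44 in the age comparison. The causes were not tested. Direction was followed only for calls: the segments whose called adjusted p is given above, and Igkc, Iglc1, Iglc2, Iglc3, Jchain and Pou2af1. None of these changed direction in any setting that tested them. Segments and genes that were not called, and the other marker genes, were not followed.

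Group values below are in the order young, aged control, aged anti-PD-1 and combination. Segments with at least 10 reads averaged 29.3, 58.7, 62.0 and 62.0, against 81.7, 88.0, 86.7 and 92.0 with at least 1; at 765 reads the aged groups averaged 76.6, 71.4 and 72.6. Without mitochondrial and haemoglobin reads the young total was 43.7 CPM. The lambda share from constant genes averaged 37.6%, 12.7%, 13.1% and 11.0%. The inverse Simpson index averaged 38.2, 20.5, 20.4 and 16.5 segments, and the effective number of families 14.8, 11.5, 10.3 and 10.9. Without the most used segment aged anti-PD-1 averaged 43.9 effective segments. Reads per exon length, an alternative chosen after seeing the data, moved neither the lambda share nor evenness by more than the spread between replicates. Young libraries held only 765 to 839 light chain V reads, which limits low segments there, and 37 of 103 segments could not be tested.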
